A study of Homo sapiens with 84 samples.

Results

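The 10 genes described here belong to the transforming growth factor beta (TGF-beta) pathway. They are the ligand genes TGFB1, TGFB2, and INHBA, the receptor genes TGFBR1 and TGFBR2, the decoy receptor gene BAMBI, the signal transducer gene SMAD3, the inhibitor genes SMAD7 and SKIL, and the target gene TGFBI. Members were chosen by symbol, and all 10 were found among the 58395 Ensembl identifiers of the count files. Their levels were measured by 3′ RNA-seq, which reads the 3′ end of each transcript, so that a count does not depend on transcript length. Kyse30 cells, an esophageal squamous carcinoma line, gave 43 libraries. FaDu cells, a pharyngeal squamous carcinoma line, gave 41, of which the 20 with replicate labels 3 and 4 were used.

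All cells were kept without serum for 24 h and stayed without it. Untreated cells (Ctrl) were collected at 0, 6, and 72 h, and treated cells at 6 and 72 h. EGFlow was 1.8 nM and EGFhigh 9 nM of epidermal growth factor (EGF), the ligand of the receptor tyrosine kinase EGFR. EpEX was 50 nM of the extracellular part of EpCAM fused to an antibody Fc part, and Fc alone was its control. A further group received EGFhigh and EpEX together (EGFhigh + EpEX). The study asked which transcriptional programs accompany EGFR activation that drives proliferation or epithelial-to-mesenchymal transition (EMT), and TGF-beta is the best known inducer of EMT. No library was treated with TGF-beta, so the values below are levels of pathway genes and do not measure a response to added TGF-beta. Signaling by ligands that the cells make themselves was not tested.

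As background, TGF-beta and activin ligands are secreted dimers that bring together a type II and a type I receptor kinase at the cell surface. The type I receptor phosphorylates SMAD2 and SMAD3, which enter the nucleus with SMAD4 and regulate target genes there. SMAD7 and SKIL are targets that feed back as inhibitors, SMAD7 at the receptor and SKIL (SnoN) on the SMAD complex in the nucleus. BAMBI is a pseudoreceptor without a kinase domain that blocks the receptor complex. In squamous epithelium the pathway is known to restrain growth early in tumor development and to accompany EMT and invasion later.

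Promoter sequence is shown for the members whose differences the results turn on, so that the control regions of a ligand gene, an inhibitor gene, and a target gene can be compared. Sequences are from RefSeq on GRCh38.p14 and cover the 250 bases before the annotated transcript start, 5′ to 3′ on the strand of the gene. All 10 members had at least 1 window, 24 windows in all. Capitals mark the GC box GGGCGG on either strand, the element bound by SP1-type factors.

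TGFB1: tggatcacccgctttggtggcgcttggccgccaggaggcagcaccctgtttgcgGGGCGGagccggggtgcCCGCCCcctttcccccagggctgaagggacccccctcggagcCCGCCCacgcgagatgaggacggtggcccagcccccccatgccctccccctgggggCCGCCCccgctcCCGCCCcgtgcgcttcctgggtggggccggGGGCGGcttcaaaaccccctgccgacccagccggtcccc
TGFBI: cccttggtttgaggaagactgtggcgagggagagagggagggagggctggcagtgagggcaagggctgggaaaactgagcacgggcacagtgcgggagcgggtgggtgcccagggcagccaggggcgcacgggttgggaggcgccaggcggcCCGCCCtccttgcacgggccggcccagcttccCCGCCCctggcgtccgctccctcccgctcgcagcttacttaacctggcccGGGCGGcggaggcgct
INHBA: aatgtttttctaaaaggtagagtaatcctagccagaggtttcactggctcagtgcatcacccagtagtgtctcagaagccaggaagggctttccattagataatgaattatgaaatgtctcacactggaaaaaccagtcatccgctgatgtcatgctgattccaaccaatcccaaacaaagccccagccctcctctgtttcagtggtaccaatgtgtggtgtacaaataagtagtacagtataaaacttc
SKIL: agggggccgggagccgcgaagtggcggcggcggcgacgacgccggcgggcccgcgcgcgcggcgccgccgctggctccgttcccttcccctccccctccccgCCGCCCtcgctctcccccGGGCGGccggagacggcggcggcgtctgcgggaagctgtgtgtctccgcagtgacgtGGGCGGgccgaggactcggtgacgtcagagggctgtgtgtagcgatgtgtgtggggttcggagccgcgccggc

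The windows lie at chr19:41353923-41354172 (minus strand) for TGFB1, chr5:136028738-136028987 (plus strand) for TGFBI, chr7:41703091-41703340 (minus strand) for INHBA, and chr3:170357465-170357714 (plus strand) for SKIL. The ends of the TGFBI and SKIL windows and the whole INHBA window overlap the longer spans that GENCODE gives these genes, which on GRCh38 are chr5:136028895-136063818 for TGFBI, chr3:170357678-170396835 for SKIL, and chr7:41667168-41705834 for INHBA. TGFB1 spans chr19:41301587-41353911. The TGFB1 window held 6 GC boxes, the TGFBI window 3, the SKIL window 3, and the INHBA window 0. A GC box was found in 10 of the 24 windows of the members and in 42.6% of all 35116 RefSeq windows of the same length. Both strands were also searched for the AP-1 motif TGANTCA, the SMAD motif CAGACA, and the SMAD palindrome GTCTAGAC. AP-1 matched 1 member window, of SMAD3, against 6.57% of all windows. The motif CAGACA matched 4 member windows, of TGFB2, TGFBR1, and SMAD3, against 13.6% of all windows. The palindrome matched 0 member windows, against 0.182% of all. A match describes the letters only.

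Total counts on genes per Kyse30 library lay between 1944948 and 11759799, with a median of 6304338. FaDu libraries had 6217938 to 12442349 counts, with a median of 9259762. A floor of 3 counts corresponded to 0.255 to 1.54 CPM (counts scaled to a common library total) in Kyse30 and 0.241 to 0.482 CPM in FaDu. Intervals and floors cover counting error only. FaDu replicates 1 and 2 stood apart from replicates 3 and 4: the median Spearman rho between libraries was 0.961 within replicates 3 and 4, 0.841 within replicates 1 and 2, and 0.834 between the sets. The 8 squamous epithelial markers summed to 1220 to 3380 CPM in Kyse30 and 1710 to 5910 CPM in FaDu, and the 4 leukocyte markers to at most 2.54 CPM. The 6 fibroblast markers summed to 9.9 to 44.7 CPM in Kyse30 and 6.98 to 15.3 CPM in FaDu, and the 3 endothelial markers to at most 7.44 and 9.52 CPM. Of the squamous markers, the basal keratin gene KRT5 was low in Kyse30, at 0.664 to 7.99 CPM against 41.7 to 604 CPM in FaDu. The labels do not say whether replicates were separate cultures, so p-values measure the spread between these libraries only. In bulk RNA, fewer cells that express a gene and less RNA per cell cannot be told apart.

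All 10 members passed the filter on low counts in both lines, but at very different levels. In Kyse30, TGFBI was the highest at a mean of 112 CPM over the 43 libraries, followed by SMAD3 at 91.5 CPM, TGFBR1 at 74.7 CPM, and SKIL at 44.4 CPM. INHBA and TGFBR2 had similar means of 23.7 and 23.0 CPM. TGFB1 had 5.32 CPM, TGFB2 3.5 CPM, SMAD7 2.63 CPM, and BAMBI 0.478 CPM. TGFBI lay at the percentile 89.9 of the genes tested and BAMBI at 3.92. BAMBI had 0 counts in 15 of 43 libraries and 128 counts in all, so differences in BAMBI were not detectable at this depth.

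**Figure D1:**
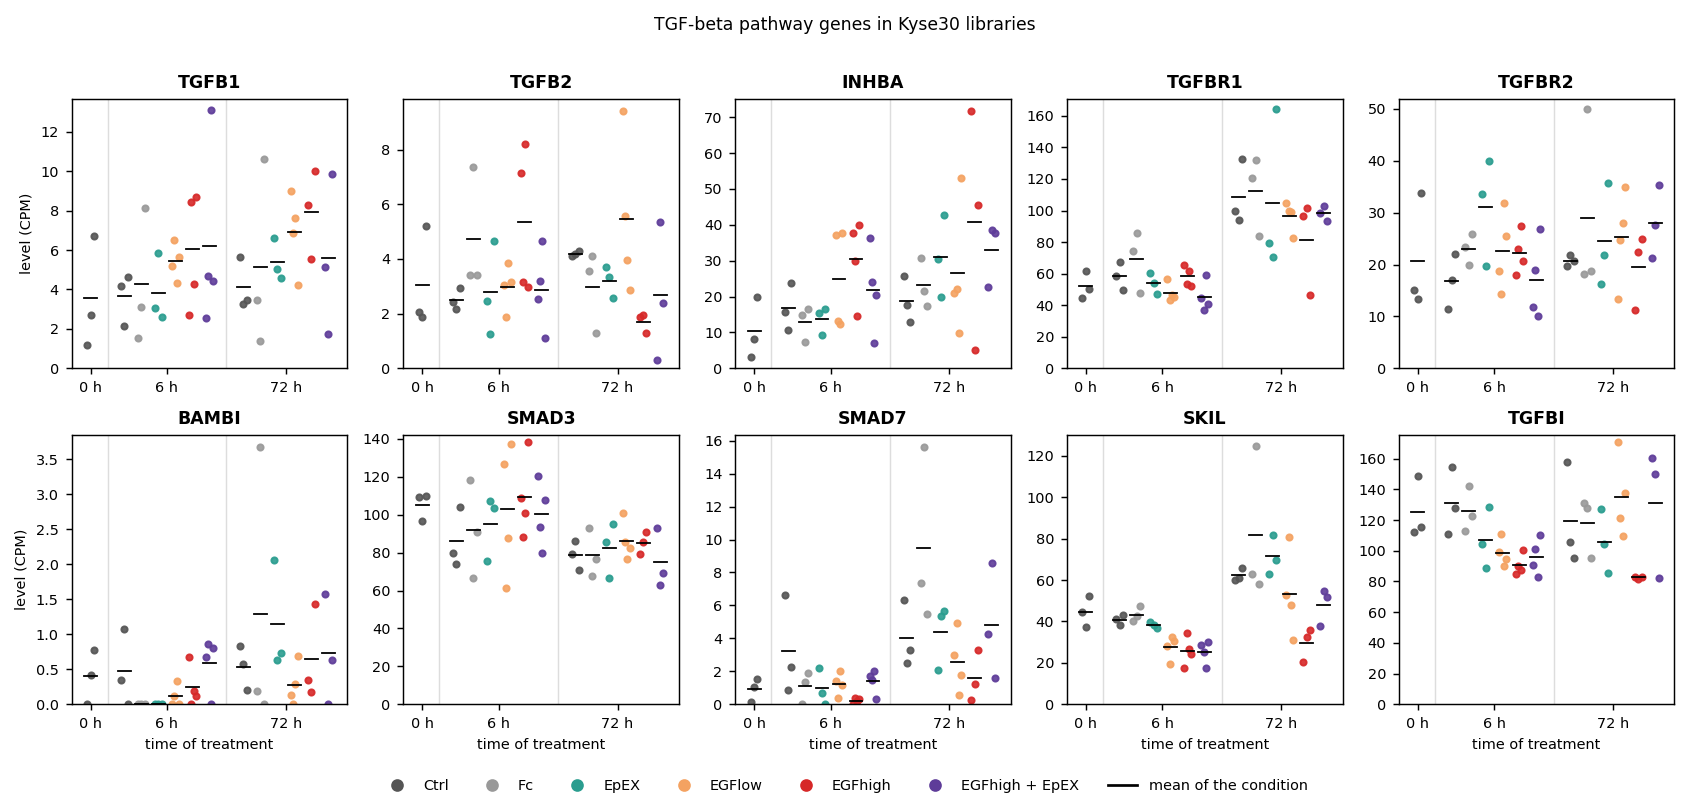
Levels of the 10 members in Kyse30. Each panel plots 1 gene, with the time of treatment on the x axis and the level in CPM on a linear y axis from 0. Points are the 43 libraries, colored by treatment, and lines the mean of each of the 13 conditions. SKIL is lower with EGFhigh, at 20.3 to 35.8 CPM at 72 h against 60.2 to 65.6 CPM in Ctrl, and SMAD7 is lowest with EGFhigh at 6 h.

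Calls were made with edgeR's quasi-likelihood test and Benjamini-Hochberg adjustment over all genes tested (adjusted p at most 0.05 and an absolute log2 fold change (log2FC) over 0.5). Over 17 comparisons within Kyse30, 3 calls were made in 170 tests of members, all of lower levels with EGFhigh. They were SMAD7 at 6 h, SKIL at 72 h, and TGFBI at 72 h against EGFlow. In these comparisons 2.55%, 6.2%, and 3.73% of all genes were called, and 1.21%, 3.16%, and 1.71% as lower. Comparisons with the same Ctrl or EGFhigh libraries share those samples and are not independent of each other.

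Of the ligand genes, TGFB1 encodes TGF-beta 1, the most widely expressed TGF-beta. TGFB1 had 4.17, 2.16, and 4.63 CPM in Ctrl at 6 h and 2.72, 8.43, 4.29, and 8.72 CPM with EGFhigh. The libraries overlapped, and the log2FC was 0.75 (SE 0.62, adjusted p = 0.628). At 72 h, Ctrl had 5.67, 3.24, and 3.48 CPM and EGFhigh 8.28, 5.53, and 9.99 CPM, again with overlap (log2FC 0.93, SE 0.65, adjusted p = 0.465). The mean over conditions was highest with EGFhigh at 72 h (7.93 ± 2.25 CPM, SD, n = 3) and lowest in Ctrl at 0 h (3.55 ± 2.86 CPM, SD, n = 3), and the libraries of these conditions overlapped. TGFB1 overlaps 4 protein-coding genes on the opposite strand, among them HNRNPUL1 and CCDC97, and the strand setting of the counting is not given in the sources used here.

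TGFB2 encodes TGF-beta 2. Ctrl at 72 h had 4.09, 4.20, and 4.29 CPM, and EGFhigh at 72 h had 1.87, 1.96, and 1.28 CPM. The groups did not overlap, with 9 to 16 counts per EGFhigh library, and the difference was not called (log2FC -1.29, SE 0.68, adjusted p = 0.296). At 6 h the order was the opposite, with 2.43, 2.16, and 2.95 CPM in Ctrl and 7.14, 3.16, 8.19, and 2.98 CPM with EGFhigh (log2FC 1.08, SE 0.64, adjusted p = 0.451), again without overlap and without a call. The test of the difference between the effects at 72 and 6 h gave a log2 difference of -2.37 (SE 0.93, adjusted p = 0.227, edgeR), which was not called. TGFB2 overlaps the noncoding gene TGFB2-OT1 on the same strand, so reads of the overlap may belong to either.

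INHBA encodes the subunit of activin A, a ligand that signals through SMAD2 and SMAD3 as TGF-beta does. With EGFhigh at 72 h, INHBA had 71.7, 4.99, and 45.4 CPM, against 25.7, 17.6, and 12.9 CPM in Ctrl. The EGFhigh libraries lay both above and below all Ctrl libraries, and the log2FC of 1.12 (SE 0.60) had an adjusted p of 0.309. INHBA overlaps the antisense gene INHBA-AS1, and reads of both may not be told apart. At 6 h, EGFhigh had 37.7, 29.9, 14.6, and 39.9 CPM and Ctrl 15.8, 10.7, and 23.9 CPM (log2FC 0.86, SE 0.57, adjusted p = 0.521).

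Of the receptor genes, TGFBR1 encodes the type I receptor kinase that phosphorylates SMAD2 and SMAD3. Ctrl had 44.4, 61.5, and 50.4 CPM at 0 h, 58.6, 67.2, and 49.5 CPM at 6 h, and 99.9, 93.7, and 133 CPM at 72 h. All 72 h libraries lay above all earlier ones, and the log2FC of 72 against 6 h was 0.90 (SE 0.26, adjusted p = 0.0639), just short of a call where 0 of 10 members and 1.55% of all genes were called, 0.775% as higher and 0.775% as lower. The 6 conditions of 72 h held the 6 highest means (81.5 to 112 CPM) and the 7 conditions of 0 and 6 h the 7 lowest (45.3 to 69.5 CPM). TGFBR1 was called in this comparison with the replicate number as a block, with DESeq2, without the filter on low counts, and in a fit of only these groups.

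TGFBR2 encodes the type II receptor that binds the ligand first. It ranged from 16.8 ± 5.28 CPM (SD, n = 3) in Ctrl at 6 h to 31.1 ± 10.4 CPM (SD, n = 3) with EpEX at 6 h, and 0 of 17 comparisons in Kyse30 called it. With EGFhigh at 72 h it had 11.2, 22.5, and 24.8 CPM against 19.7, 21.8, and 20.7 CPM in Ctrl, which overlapped (log2FC -0.09, SE 0.41). BAMBI stayed at or under 16 counts in all Kyse30 libraries.

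SMAD3 encodes the transducer that the activated receptor phosphorylates. It had the smallest range over conditions, from 75.1 ± 15.8 CPM (SD, n = 3) with EGFhigh + EpEX at 72 h to 109 ± 21.2 CPM (SD, n = 4) with EGFhigh at 6 h, a span of 0.54 on the log2 scale. EGFhigh at 72 h had 79.2, 85.4, and 91.1 CPM and Ctrl 79.3, 86.2, and 71.0 CPM, which overlapped (log2FC 0.11, SE 0.23, adjusted p = 0.862).

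SMAD7 encodes the inhibitory SMAD, which is itself a direct TGF-beta target. At 6 h, Ctrl libraries had 38, 7, and 16 counts (6.60, 0.839, and 2.24 CPM), and EGFhigh libraries 0, 2, 1, and 3 counts (0, 0.351, 0.195, and 0.344 CPM). Every EGFhigh library lay below every Ctrl library, and the ratio of summed counts per total was 0.0947 (exact 95% interval 0.0334 to 0.218, counting error only). SMAD7 was the 1 of 10 members called in this comparison, in which 2.55% of all genes were called and 1.21% as lower (log2FC -3.57, SE 1.03, adjusted p = 0.0498). The adjusted p was above 0.05 without any 1 of the 7 libraries (0.0502 to 0.308), the highest without Ctrl replicate 1, where the log2FC was -2.52. EGFlow libraries at 6 h had 11, 3, 12, and 7 counts, a ratio of 0.409 (0.259 to 0.635) against Ctrl, and were not called. Fc libraries at 6 h had 0, 6, and 13 counts (0, 1.34, and 1.92 CPM), and Ctrl at 0 h had 2, 5, and 8 counts (0.16, 1.05, and 1.54 CPM), so that both overlapped the EGFhigh libraries. At 72 h, SMAD7 had 6.33, 2.48, and 3.27 CPM in Ctrl and 0.233, 1.25, and 3.28 CPM with EGFhigh, which overlapped (adjusted p = 0.47).

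SKIL encodes SnoN, which binds SMAD3 and SMAD4 on DNA and recruits corepressors. At 72 h, SKIL had 60.2, 60.9, and 65.6 CPM in Ctrl and 20.3, 32.3, and 35.8 CPM with EGFhigh. The groups did not overlap, and SKIL was lower with EGFhigh, at 29.5 ± 8.14 CPM (SD, n = 3) against 62.2 ± 2.97 CPM (SD, n = 3), with a log2FC of -1.08 (SE 0.28, adjusted p = 0.0127). It was the 1 of 10 members called, in a comparison that called 6.2% of all genes and 3.16% as lower. The call was lost without EGFhigh replicate 1, with a log2FC of -0.86 (adjusted p = 0.111), and held without each of the other 5 libraries.

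At 6 h, SKIL had 41.2, 38.4, and 42.9 CPM in Ctrl, 28.3, 19.4, 32.4, and 30.4 CPM with EGFlow, and 17.7, 34.2, 26.9, and 24.1 CPM with EGFhigh. Both EGF doses lay below all Ctrl libraries, and neither was called (log2FC -0.57, adjusted p = 0.316 for EGFlow and -0.66, adjusted p = 0.188 for EGFhigh). EGFlow at 6 h called 0 of 10 members and 1.5% of all genes with edgeR (0.814% as higher). An unadjusted p under 0.05 was found for 2 members and for 2100 of all 15350 genes. With EGFhigh + EpEX at 6 h, SKIL had 28.8, 25.5, 17.7, and 29.9 CPM against 40.0, 42.8, and 47.3 CPM with Fc (log2FC -0.77, SE 0.26, adjusted p = 0.0783), in a comparison with 0 of 10 members and 4.52% of all genes called, 3.01% as higher. SKIL was called there with the replicate block (adjusted p = 0.029), with DESeq2 (adjusted p = 0.0415), and with untreated and Fc libraries together as control (adjusted p = 0.04). EpEX alone had 39.6, 38.3, and 36.9 CPM, all just below the Fc libraries (log2FC -0.18, adjusted p = 0.915).

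At 72 h with EGFlow, SKIL had 52.8, 80.8, 48.0, and 31.2 CPM, a wider range than with EGFhigh. EGFlow against Ctrl at 72 h called 0 genes of 15350 (percent called 0; 439 genes had an unadjusted p under 0.05, among them 0 of 10 members; DESeq2 called 0 genes). The 13 conditions in order of the mean SKIL level were Fc 72 h (81.9 ± 37.3 CPM), EpEX 72 h (71.4 ± 9.46 CPM), Ctrl 72 h (62.2 ± 2.97 CPM), EGFlow 72 h (53.2 ± 20.6 CPM), EGFhigh + EpEX 72 h (48.2 ± 8.90 CPM), Ctrl 0 h (44.7 ± 7.32 CPM), Fc 6 h (43.4 ± 3.67 CPM), Ctrl 6 h (40.8 ± 2.30 CPM), EpEX 6 h (38.3 ± 1.34 CPM), EGFhigh 72 h (29.5 ± 8.14 CPM), EGFlow 6 h (27.6 ± 5.77 CPM), EGFhigh 6 h (25.7 ± 6.87 CPM), and EGFhigh + EpEX 6 h (25.5 ± 5.49 CPM), each with its SD over 3 libraries, or 4 for the EGF groups of 6 h and EGFlow at 72 h. The libraries of neighbors in this order overlapped, except that all EpEX 6 h libraries lay above all EGFhigh 72 h libraries.

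TGFBI encodes an extracellular matrix protein that was named for its induction by TGF-beta. Ctrl at 6 h had 111, 155, and 128 CPM and EGFhigh 84.6, 90.1, 87.6, and 100 CPM, without overlap (log2FC -0.53, SE 0.20, adjusted p = 0.156). At 72 h, Ctrl had 158, 106, and 95.5 CPM and EGFhigh 83.2, 81.8, and 83.1 CPM, also without overlap (log2FC -0.54, SE 0.22, adjusted p = 0.143). Neither difference was called, and the effects at both times differed by a log2 value of -0.002 (SE 0.29).

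EGFlow at 72 h had TGFBI levels of 171, 121, 110, and 138 CPM. TGFBI was lower with EGFhigh than with EGFlow at 72 h, at 82.7 ± 0.736 CPM (SD, n = 3) against 135 ± 26.7 CPM (SD, n = 4), with a log2FC of -0.71 (SE 0.20, adjusted p = 0.0383). It was the 1 of 10 members called, where 3.73% of all genes were called, 2.03% as higher and 1.71% as lower. The call held without 1 of the 7 libraries and was lost without each of the other 6. In the same comparison, SKIL had a log2FC of -0.86 (adjusted p = 0.0579) and TGFB2 of -1.68 (adjusted p = 0.161). DESeq2 called both TGFBI and SKIL here.

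**Figure D2:**
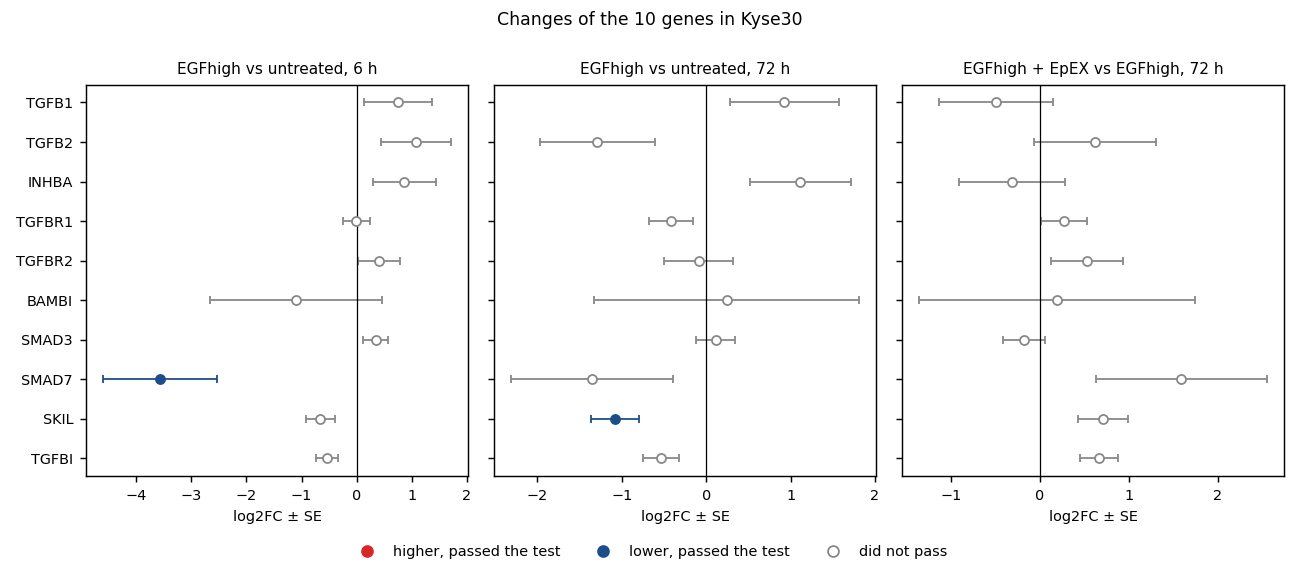
Differences of the 10 members in Kyse30 for EGFhigh against Ctrl at 6 and 72 h and for EGFhigh + EpEX against EGFhigh at 72 h. The x axis is the log2FC, with its own scale in each panel, bars are ± 1 SE of the edgeR fit, and filled points were called. SKIL and TGFBI lie below 0 for EGFhigh at both times (SKIL -0.66 and -1.08, TGFBI -0.53 and -0.54) and above 0 for EGFhigh + EpEX against EGFhigh (0.71 and 0.66), with only SKIL at 72 h and SMAD7 at 6 h called.

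EGFhigh + EpEX was also compared with EGFhigh at 72 h. EpEX carried an Fc part and no group received EGFhigh with Fc, so the parts of EpEX and Fc in a difference cannot be told apart. TGFBI had 161, 150, and 82.4 CPM with EGFhigh + EpEX, so 2 of its 3 libraries lay far above the EGFhigh libraries and 1 lay among them (log2FC 0.66, SE 0.22, adjusted p = 0.0773). SKIL had 38.1, 54.7, and 51.9 CPM, all above the EGFhigh libraries and below the Ctrl libraries (log2FC 0.71, SE 0.28, adjusted p = 0.168). The comparison called 0 of 10 members and 3.58% of all genes with edgeR, 1.86% as higher and 1.72% as lower. An unadjusted p under 0.05 was found for 2 members and for 2492 of all 15350 genes, and DESeq2 called 1 member, TGFBI. It shares the EGFhigh libraries with the comparison to Ctrl, so opposite signs in both comparisons are not independent. The median log2FC of the members was 0.40 against 0.03 for all genes, and for EGFhigh against Ctrl at 72 h it was -0.25 against -0.03.

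EpEX against Fc called 0 of 10 members at 6 h, where 0.0261% of all genes were called, and 0 at 72 h, where 0 genes were called (554 had an unadjusted p under 0.05, with 0 members among them, and DESeq2 called 2 genes). At 72 h, EGFhigh + EpEX against Fc likewise called 0 genes with edgeR and 0 with DESeq2, with 601 at an unadjusted p under 0.05. SKIL was the 1 member among those, with 38.1, 54.7, and 51.9 CPM against 62.9, 125, and 58.0 CPM with Fc. Fc against Ctrl at 72 h called 0 genes of 15350 with edgeR (439 had an unadjusted p under 0.05, with 0 members among them). The median log2FC of the members was 0.29 there, against 0 for all genes, and SKIL had 81.9 ± 37.3 CPM with Fc and 62.2 ± 2.97 CPM in Ctrl. Fc against Ctrl at 6 h called 0 genes too (435 under 0.05, with 1 member). Fc replicate 2 at 72 h held the highest SKIL, SMAD7, BAMBI, and TGFBR2 values of any Kyse30 library (125, 15.6, 3.67, and 50 CPM).

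Other genes of the pathway were read from 4 lists of textbook members, given here by how many of those tested passed. Of 18 other ligand, latency, and activation genes tested in Kyse30, 2 were higher and 0 lower with EGFhigh at 6 h (1.34% of all genes were higher and 1.21% lower), where FST, which encodes follistatin, an extracellular trap of activin, rose from 25.3 ± 16.1 CPM (SD, n = 3) to 108 ± 32.6 CPM (SD, n = 4, log2FC 2.10, SE 0.42, adjusted p = 0.0034). NOG, which encodes the BMP antagonist noggin, rose from 3.81 ± 2.25 to 16.9 ± 1.78 CPM (log2FC 2.12, SE 0.53, adjusted p = 0.0204). The lowest FST library with EGFhigh (69.8 CPM) lay above the highest Ctrl library (43.4 CPM), and the NOG groups did not overlap either. The median of the list was 0.19 against -0.05 for all genes. The FST call held without each of the 7 libraries, and the NOG call was lost without any 1 of the Ctrl libraries (highest adjusted p = 0.143).

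At 72 h with EGFhigh, 1 gene of this list was higher and 2 were lower, where 3.04% of all genes were higher and 3.16% lower. FSTL3, which encodes another activin-binding protein, had 0, 0.191, and 1.43 CPM in Ctrl and 2.45, 7.49, and 10.7 CPM with EGFhigh, with 0 to 7 counts in Ctrl libraries (adjusted p = 0.0197), and the call was lost without Ctrl replicate 1, Ctrl replicate 2, or EGFhigh replicate 4 (highest adjusted p = 0.115). FSTL1, a secreted follistatin-like protein gene, had 53.2 ± 14.7 CPM in Ctrl and 17.2 ± 5.05 CPM with EGFhigh (SD, n = 3 each, log2FC -1.63, SE 0.32, adjusted p = 0.00079). At 6 h, Ctrl had 26.1 ± 10.5 CPM (n = 3) and EGFhigh 28.1 ± 6.43 CPM (n = 4). THBS1, which encodes thrombospondin 1, an activator of latent TGF-beta, fell from 77.1 ± 19.6 to 26.5 ± 13.8 CPM (log2FC -1.54, SE 0.39, adjusted p = 0.0116). The FSTL1 call held without each of the 6 libraries, and that of THBS1 was lost without Ctrl replicate 3, EGFhigh replicate 3, or EGFhigh replicate 4 (highest adjusted p = 0.0809). For FST (log2FC 2.10 at 6 h and -0.97 at 72 h) and THBS1 (1.06 and -1.54), the difference between the effects at 72 and 6 h was called (log2 difference -3.07, adjusted p = 0.0038 for FST and -2.59, adjusted p = 0.00635 for THBS1), where 1.01% of all genes were called, 0.495% with a higher and 0.515% with a lower effect at 72 h. FST at 72 h and THBS1 at 6 h were not called on their own (adjusted p = 0.204 and 0.117).

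Of 9 other receptor and co-receptor genes tested, 0 were called with EGFhigh at 6 h and 0 at 72 h (edgeR). Of all genes, 2.55% and 6.2% were called. The medians of the list were -0.28 and -0.17, against -0.05 and -0.03 for all genes. An unadjusted p under 0.05 was found for 1 of the 9 at 6 h and 2 at 72 h, against 2338 and 2982 of all 15350 genes. DESeq2 called 0 of the 9 at either time.

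Of 20 other SMADs and SMAD regulators tested, 0 were called at 6 h with edgeR, where 2.55% of all genes were called, and 0 with DESeq2. At 72 h, 3 were higher and 0 lower (3.04% of all genes were higher and 3.16% lower). SMURF1, which encodes a ubiquitin ligase that SMAD7 brings to the receptor, had 11.6, 12.1, and 17.6 CPM in Ctrl and 35.0, 38.9, and 39.4 CPM with EGFhigh, and rose with a log2FC of 1.46 (SE 0.31, adjusted p = 0.0023). STRAP, which encodes a partner of SMAD7 at the receptor, had 72.4 ± 5.06 CPM in Ctrl and 135 ± 24.0 CPM with EGFhigh (log2FC 0.90, adjusted p = 0.00503). In Ctrl, STRAP fell to this level from 131 ± 9.33 CPM at 6 h (log2FC -0.85, edgeR adjusted p = 0.0239), while EGFhigh had 166 ± 24.4 CPM at 6 h. FKBP1A, whose product FKBP12 binds the type I receptor, had 586 ± 92.2 CPM in Ctrl and 988 ± 177 CPM with EGFhigh (log2FC 0.75, adjusted p = 0.00686). These 3 genes are known for restraining the receptor, but other inhibitors on the list, among them SMURF2 and SMAD6, were not called. The inhibitor member SKIL was called as lower in the same comparison (log2FC -1.08), so the 3 calls do not describe the inhibitors as a group. The calls of SMURF1 and STRAP held without each of the 6 libraries, and that of FKBP1A was lost without Ctrl replicate 2, Ctrl replicate 3, or EGFhigh replicate 1 (highest adjusted p = 0.0566). STRAP and FKBP1A belong to the EMT signature that the study derived from these samples, so they are not independent evidence of a direction.

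Of 28 other TGF-beta target genes tested, 3 were higher and 0 lower with EGFhigh at 6 h, where 1.34% of all genes were higher and 1.21% lower. The list does not separate genes that TGF-beta raises from genes that it lowers. Its counts and medians, here and below, therefore give no direction of TGF-beta signaling. ANGPTL4, a secreted regulator of lipoprotein lipase, rose from 0.950 ± 0.573 to 14.9 ± 3.87 CPM (log2FC 3.93, adjusted p = 0.00968). SPHK1, which encodes sphingosine kinase 1, rose from 7.14 ± 2.65 to 49.7 ± 19.0 CPM (log2FC 2.79, adjusted p = 0.00191), and ITGB1, which encodes integrin beta 1, from 84.7 ± 9.07 to 148 ± 10.1 CPM (log2FC 0.80, adjusted p = 0.0145). None of the 3 had overlapping groups. SPHK1 was called without each of the 7 libraries, and ANGPTL4 and ITGB1 were not called without Ctrl replicate 1 or Ctrl replicate 4 (highest adjusted p = 0.0858 and 0.115).

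At 72 h, 2 target genes were higher and 5 lower, against 3.04% of all genes higher and 3.16% lower. FN1, which encodes fibronectin, had 541, 553, and 654 CPM in Ctrl and 13.9, 22.6, and 25.9 CPM with EGFhigh, and fell by 4.80 on the log2 scale (SE 0.69, adjusted p = 1.04e-05). In Ctrl, FN1 rose from 63.3 ± 17.5 CPM at 6 h to 582 ± 61.9 CPM at 72 h (log2FC 3.20, adjusted p = 0.0033), while EGFhigh had 62.3 ± 28.4 CPM at 6 h. ID2 and ID1 encode inhibitors of bHLH factors and are targets of BMP signaling through SMAD1 and SMAD5. ID2 had 93.7 ± 55.8 CPM in Ctrl and 5.45 ± 1.89 CPM with EGFhigh (log2FC -4.08, adjusted p = 2.91e-05), and ID1 339 ± 71.8 and 100 ± 29.7 CPM (log2FC -1.76, adjusted p = 0.00526). In Ctrl both rose from 6 to 72 h, ID2 from 18.7 ± 10.0 CPM (log2FC 2.32, edgeR adjusted p = 0.0227) and ID1 from 116 ± 48.3 CPM (1.54, adjusted p = 0.0382). EGFhigh at 6 h had 6.67 ± 1.72 CPM of ID2 and 90.5 ± 14.8 CPM of ID1. ID3 (log2FC -1.60) and NUAK1 (-1.32) were also lower and HMGA2 (0.93) higher, the 3 named here after their values were seen. ANGPTL4 was higher at 72 h too (log2FC 3.04, adjusted p = 0.0246). The calls of FN1, ID1, and ID2 held without each of the 6 libraries. The others were lost without at least 1, with highest adjusted p of 0.104 for ANGPTL4, 0.119 for NUAK1, 0.14 for ID3, and 0.149 for HMGA2.

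With EGFhigh + EpEX against EGFhigh at 72 h, 4 target genes were higher and 0 lower, where 1.86% of all genes were higher and 1.72% lower. As above, EpEX and its Fc part cannot be told apart in this comparison. FN1 had 101, 186, and 394 CPM, above all EGFhigh and below all Ctrl libraries (log2FC 3.44, SE 0.65, adjusted p = 0.000826). ID2 rose to 120 ± 49.9 CPM (log2FC 4.45, adjusted p = 2.14e-05) and ID1 to 413 ± 108 CPM (log2FC 2.04, adjusted p = 0.00225), both overlapping the Ctrl libraries. ID3 was the other gene called (1.82). FSTL1 rose (log2FC 1.33, adjusted p = 0.00937), and SMURF1 fell to 13.1 ± 2.39 CPM (log2FC -1.53, adjusted p = 0.00253) and FKBP1A to 536 ± 110 CPM (log2FC -0.88, adjusted p = 0.00253). FURIN, which encodes a protease that cleaves the TGF-beta precursor, was lower (log2FC -1.09), and was named after its values were seen. Without 1 library, the calls of FN1, ID1, ID2, and SMURF1 held in every case, while those of FSTL1, ID3, FURIN, and FKBP1A were lost in some (highest adjusted p = 0.0666, 0.102, 0.0625, and 0.0615).

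**Figure D3:**
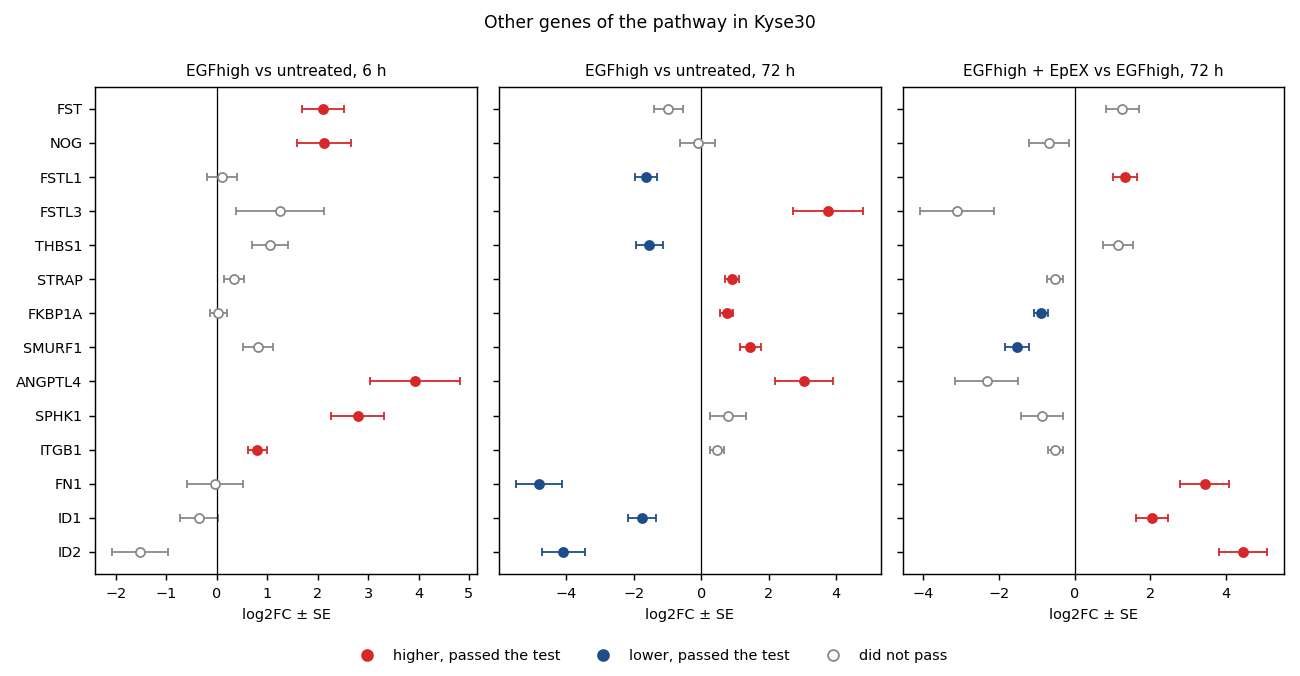
Differences of 14 other pathway genes in Kyse30, chosen as the called genes with the largest changes with EGFhigh in each list. The x axis is the log2FC, with its own scale in each panel and bars of ± 1 SE, for EGFhigh against Ctrl at 6 and 72 h and EGFhigh + EpEX against EGFhigh at 72 h. FN1, ID1, and ID2 lie far below 0 with EGFhigh at 72 h (-4.80, -1.76, and -4.08) and above 0 with EGFhigh + EpEX against EGFhigh (3.44, 2.04, and 4.45).

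In FaDu, the level of the members differed from Kyse30. Untreated cells at 6 h were compared in 1 fit over both lines, in which 5 of 10 members were called, 4 higher and 1 lower in Kyse30, where 22.4% of all genes were called (12% higher and 10.4% lower). TGFBI had 131 ± 22.3 CPM (SD, n = 3) in Kyse30 and 2.39 ± 0.488 CPM (SD, n = 2) in FaDu (log2FC 5.77, SE 0.36, adjusted p = 5.52e-19). INHBA had 16.7 ± 6.70 against 0.597 ± 0.164 CPM (log2FC 4.77, adjusted p = 0.000775), with 4 and 6 counts in the FaDu libraries. TGFBR1 had 58.2 ± 8.67 against 19.1 ± 3.53 CPM (log2FC 1.61, adjusted p = 5.29e-05). TGFB1 had 3.64 ± 1.31 against 0.540 ± 0.595 CPM (log2FC 2.71, adjusted p = 0.019), with 1 and 8 counts in FaDu, and this call was lost without FaDu Ctrl replicate 3 (1.90, adjusted p = 0.285) or Kyse30 Ctrl replicate 4 (2.49, adjusted p = 0.0524). SKIL was the member lower in Kyse30, at 40.7 ± 2.38 against 101 ± 7.57 CPM (log2FC -1.32, adjusted p = 0.000326). With all FaDu libraries, 1 of 10 members was called (TGFBR1, log2FC 1.60) and INHBA turned to -0.92. The FaDu libraries of replicates 1 and 2 had a median of 18.7 CPM of INHBA (CPM TMM-adjusted over all FaDu libraries). Line and library batch cannot be told apart.

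**Figure D4:**
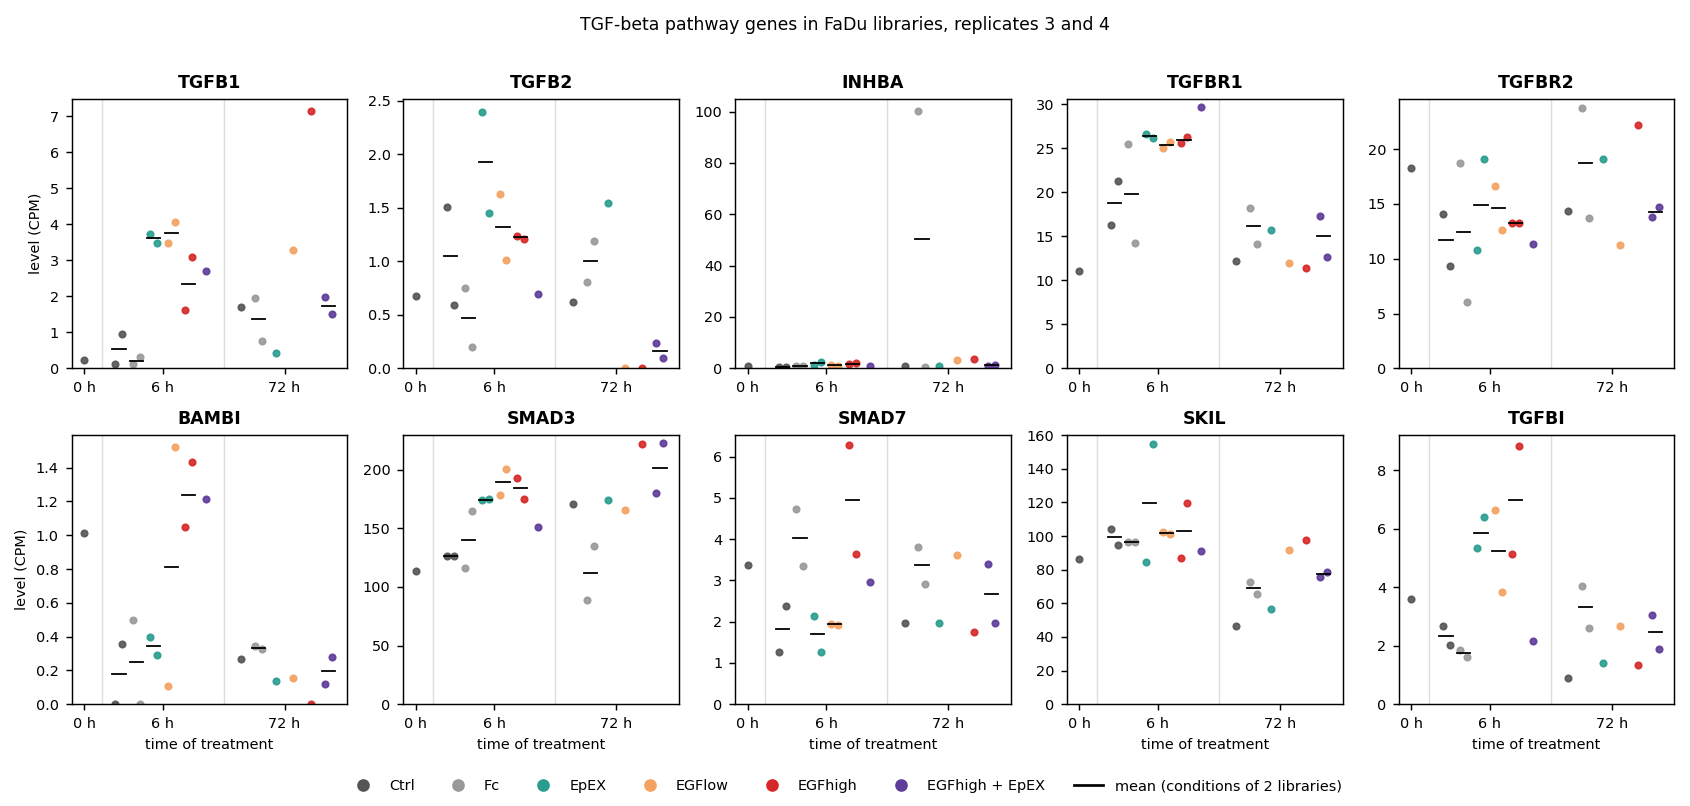
Levels of the 10 members in FaDu replicates 3 and 4. Each panel plots 1 gene, with the time of treatment on the x axis and the level in CPM on a linear y axis from 0. Points are the 20 libraries, and a line marks the mean where a condition has 2 libraries. INHBA is at 100 CPM in Fc at 72 h, replicate 3, and between 0.474 and 3.49 CPM in the other 19 libraries.

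SMAD4, the common partner SMAD of the pathway, is known to be lost in FaDu cells. It was named here after its values were seen. SMAD4 had 13 counts in all over the 20 FaDu libraries of replicates 3 and 4, with 0 counts in 13 of them and at most 5 counts in 1 library. In Kyse30 it ranged from 9.76 to 35 CPM (median 18.6 CPM of total counts), and in FaDu replicates 1 and 2 from 0.241 to 44 CPM (median 16.1 CPM), where 0 of 21 libraries had a count of 0. The co-receptor gene TGFBR3 (betaglycan) ranged from 11.3 to 91.2 CPM in Kyse30 and from 0 to 3.21 CPM in FaDu replicates 3 and 4, with 0 counts in 9 of 20 libraries.

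In FaDu at 6 h, 2 libraries per group allowed a test for EGFlow, EGFhigh, and EpEX. TGFB1 had 1 and 3 counts with Fc (0.124 and 0.304 CPM) and 28 and 36 counts with EpEX (3.73 and 3.49 CPM). The groups lay far apart, with a ratio of summed counts per total of 16.0 (exact 95% interval 5.96 to 60.6), and TGFB1 was the 1 of 10 members called, in a comparison that called 3.5% of all genes and 2.45% as higher (edgeR adjusted p = 0.023). The call was lost without any 1 of the 4 libraries (adjusted p 0.054 to 0.202), and with all FaDu libraries the log2FC turned from 3.95 to -0.38 and was not called. With EGFlow, TGFB1 had 3.48 and 4.05 CPM and with EGFhigh 1.62 and 3.08 CPM, against 0.116 and 0.947 CPM in Ctrl. The ratios were 7.13 (3.56 to 16.2) for EGFlow and 4.32 (2.09 to 10.1) for EGFhigh, and neither was called (adjusted p = 0.0852 and 0.249). EGFlow called 0 of 10 members and 3.45% of all genes, and EGFhigh 0 of 10 and 3.06%. An unadjusted p under 0.05 was found for 2 and 4 members, and for 2404 and 2267 of all 16022 genes.

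TGFBI in FaDu had 2.67 and 2.01 CPM in Ctrl, 6.63 and 3.85 CPM with EGFlow, and 5.14 and 8.81 CPM with EGFhigh. It had 1.87 and 1.62 CPM with Fc and 5.33 and 6.40 CPM with EpEX. Both EGF doses and EpEX lay above their controls, and none was called (adjusted p = 0.173 for EGFhigh and 0.117 for EpEX). SMAD3 had 127 and 127 CPM in Ctrl, 179 and 200 CPM with EGFlow, and 193 and 175 CPM with EGFhigh, without overlap and without a call (log2FC 0.58, adjusted p = 0.161 and 0.54, adjusted p = 0.22). SMAD7 had 1.28 and 2.37 CPM in Ctrl and 6.28 and 3.63 CPM with EGFhigh (log2FC 1.44, adjusted p = 0.279), the opposite side of Ctrl from Kyse30. Fc libraries had 4.73 and 3.34 CPM of SMAD7, overlapping EGFhigh, and EpEX libraries 2.13 and 1.26 CPM, below both Fc libraries (log2FC -1.26, adjusted p = 0.38). SKIL had 104 and 94.7 CPM in Ctrl and 86.7 and 119 CPM with EGFhigh, which overlapped.

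The response to EGFhigh at 6 h was compared between the lines as an interaction. TGFBI was the 1 of 10 members called, where 0.0611% of all genes were called, 12 genes in all. Its log2FC was -0.53 in Kyse30 and 1.57 in FaDu, each from the fit of its own line, and the difference in the joint fit was -2.06 (SE 0.41, adjusted p = 0.0129). The call was lost without FaDu Ctrl replicate 3 (-2.29, adjusted p = 0.297), FaDu Ctrl replicate 4 (-1.87, adjusted p = 0.204), or FaDu EGFhigh replicate 4 (-1.63, adjusted p = 0.593), and with all FaDu libraries the difference was 1.29 and not called. SMAD7 differed by -4.97 (SE 1.45, adjusted p = 0.38). Of the lists, TAGLN (-4.37, adjusted p = 0.00617) and NEDD4L (-1.99, adjusted p = 0.0247) were called, and both were named after their values were seen. Whether these 2 calls hold without single libraries or with all FaDu libraries is not given here. TAGLN, the transgelin gene, had 1.42 and 1.44 CPM in FaDu Ctrl and 28 and 34 CPM with EGFhigh, against 8.27, 2.90, and 4.76 CPM and 9.39, 3.18, 6.31, and 4.07 CPM in Kyse30 (CPM of total counts).

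**Figure D5:**
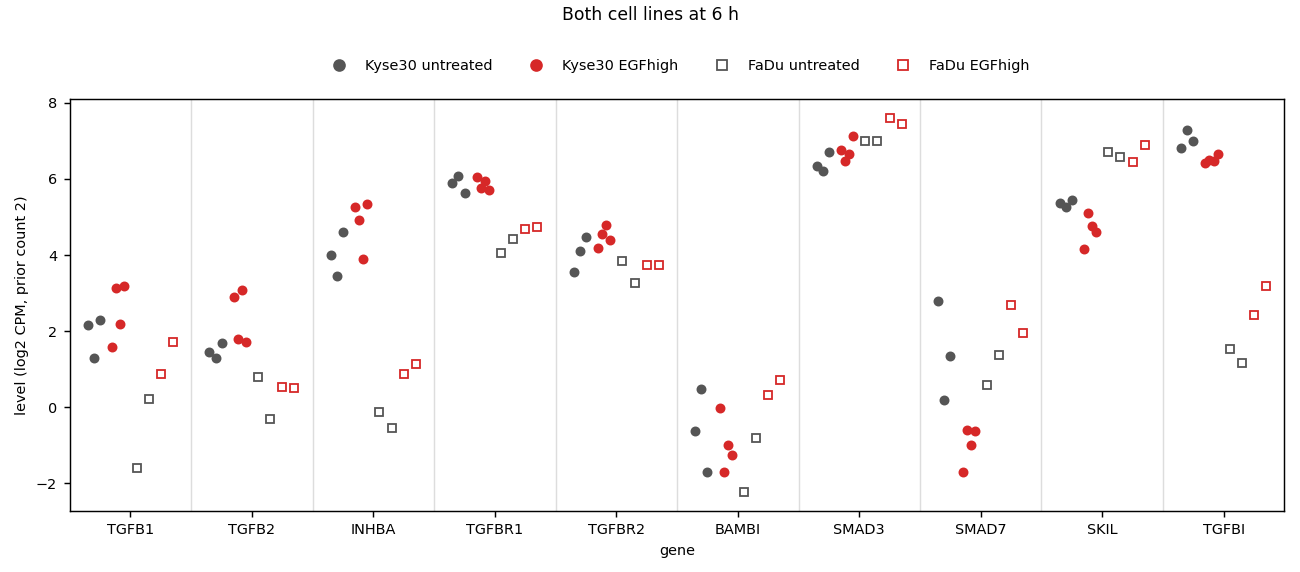
Levels of the 10 members at 6 h in Ctrl and EGFhigh libraries of both lines, as log2 CPM (prior count 2) on the y axis, with 1 point per library. TGFBI lies near 131 CPM in Kyse30 Ctrl and 2.39 CPM in FaDu Ctrl, and its EGFhigh points lie below Ctrl in Kyse30 and above Ctrl in FaDu.

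More of the other target genes were called in FaDu at 6 h. Of 27 tested, 9 were higher with EGFlow, 7 with EGFhigh, and 7 with EpEX, and 0 were lower in each (2.55%, 2.29%, and 2.45% of all genes were higher), with list medians of 1.09, 0.95, and 0.92 against -0.02, -0.01, and -0.01 for all genes. Among the genes named by the rule, SPHK1 (log2FC 4.79, adjusted p = 0.00334), ANGPTL4 (4.32, adjusted p = 0.003), and ITGB1 (0.95, adjusted p = 0.00296) were higher with EGFhigh. THBS1 was higher too, with 3.33 with EGFhigh, 3.51 with EGFlow, and 3.36 with EpEX, as was FST, with 2.60, 2.46, and 2.26. EGFlow and EGFhigh share the Ctrl libraries. These list calls rest on 2 libraries per group, and whether they hold without single libraries or with all FaDu libraries is not given here. SMAD4 had 13 counts in all over the 20 libraries, and whether TGF-beta signaling had a part in these calls was not tested. Of 19 other ligand genes tested, 4, 3, and 2 were higher with EGFlow, EGFhigh, and EpEX and 0 lower, and of 9 other receptor genes 0 were called in each. Of 19 other SMADs and regulators, 2, 3, and 4 were higher and 0, 0, and 1 lower, the last being SMAD6, which had 21 and 10 counts with Fc and 0 and 0 counts with EpEX.

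At 72 h, FaDu allowed 1 comparison with control, EGFhigh + EpEX against Fc. INHBA was the 1 of 10 members called, where 0.818% of all genes were called and 0.193% as lower. INHBA had 869 counts (100 CPM) in Fc replicate 3 and 5 counts (0.542 CPM) in Fc replicate 4, against 1.05 and 1.22 CPM with EGFhigh + EpEX. A single library thus set the difference, with a log2FC of -5.45 (adjusted p = 0.0448) and of 1.05 (not called) without it. The same library made INHBA 1 of 10 members called in Fc at 72 against 6 h, where 2.88% of all genes were called (log2FC 5.80, adjusted p = 0.0146, and -0.71 without it). Fc replicate 3 at 72 h also held the most SMAD4 counts (5) and the most TGFBR3 counts (26) of the 20 libraries, while its median Spearman rho to the others was 0.958, within the range of 0.947 to 0.965 of the set. What part this library's makeup had in the INHBA value was not tested. SMAD3 had 180 and 223 CPM with EGFhigh + EpEX against 88.9 and 135 CPM with Fc (log2FC 0.85, SE 0.21, adjusted p = 0.0682).

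With 1 library per group at 72 h, EGFlow, EGFhigh, and EpEX in FaDu have no replicate check. TGFB1 had 1.69 CPM in Ctrl, 3.29 CPM with EGFlow, 7.14 CPM with EGFhigh, and 0.420 CPM with EpEX. The EGFhigh library, with 90 counts, was the highest of the 20 for TGFB1. SMAD3 had 171, 165, 222, and 174 CPM in the same order, and SKIL 46.7, 91.7, 97.6, and 56.6 CPM. SKIL in these libraries lay higher with both EGF doses than in Ctrl, the other side of the Ctrl level from Kyse30, where all 3 EGFhigh libraries lay below Ctrl.

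Members were also described by how alike their profiles were over the 13 conditions of Kyse30. The points share libraries within a condition and the same totals, so the values describe these conditions only. TGFBR1 and SKIL had a Pearson r of 0.793, SMAD7 and SKIL of 0.784, and TGFBR1 and SMAD7 of 0.76 (n = 13 condition means of log2 CPM). All 3 had their highest mean with Fc at 72 h, where replicate 2 held the highest SKIL and SMAD7 values (125 and 15.6 CPM). SMAD7 had a median of 11 counts per library and 0 counts in 3 of 43, so its correlations rest on low counts. SMAD3 ran against them, with -0.859 to SMAD7, -0.852 to TGFBR1, and -0.703 to SKIL. TGFB1 and INHBA had 0.727.

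The genes most like each member were taken from those of at least 5 CPM on average, for the 7 members whose condition means spanned at least 1 on the log2 scale. For TGFBR1 they were SEMA3C (0.978), TCEAL9 (0.974), and GGT6 (0.971), and for SKIL CXADR (0.964), PLEKHF2 (0.951), and ZNF331 (0.938). For SMAD7 they were ATXN7L1 (0.939), RIPK4 (0.937), and MLH3 (0.93), and for INHBA TRIB1 (0.917), CSRNP1 (0.908), and RAB29 (0.861). TGFB1 was most like MIB2 (0.912), BIRC3 (0.91), and S1PR2 (0.907), TGFB2 most like DNAJC10 (0.764), BIRC2 (0.731), and PTMAP5 (0.727), and BAMBI most like ING1 (0.881), DIP2C (0.865), and AC079250.1 (0.849). Each value is a Pearson r over 13 condition means, the highest of 10241 or 10242 genes, and carries no test. The BAMBI profile lay near the floor, with 128 counts in all and 0 counts in 15 of 43 libraries, so its matches are not a readable pattern. The SMAD7 matches also rest on low counts, with a median of 11 per library.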

How the data were processed

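Libraries were made with the QuantSeq 3′ FWD kit, and the authors deposited raw counts of reads per Ensembl gene for each of 84 libraries. STAR, HTSeq, and the build GRCh38/hg38 are named in the submitters' processing notes, while versions, annotation, and strand setting are not given in the sources used here. The 5 tally rows of HTSeq were left out. Counts were filtered (filterByExpr, minimum count 10, minimum total 15), normalized by TMM, and tested with the quasi-likelihood F test of edgeR 4.0.16 (R 4.3.3) over all conditions of a line, with Benjamini-Hochberg adjustment. Both lines were fitted together for the comparisons between them. CPM are TMM-adjusted except where given as CPM of total counts. SE is the absolute log2FC divided by the square root of F. FaDu tests were made where 2 libraries stood on each side. Alternatives used DESeq2 1.42.0, other size factors, no filter, a replicate block, other samples, and leaving out each library. Tests were checked on simulated counts.

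The 10 members and the lists were chosen with earlier results of these data known. Beside the members, up to 4 called genes per list with the largest change with EGFhigh in Kyse30 at 6 h and up to 4 at 72 h were named, and for each member with a span of at least 1 (log2) the 3 genes most like it.

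Deviations from the condition means of same-numbered libraries had a mean r of 0.0633 in Kyse30 and 0.0713 in FaDu. For other-numbered libraries the mean r was -0.0216 and -0.0713. Of the same-numbered pairs, 64 of 217 in Kyse30 and 14 of 42 in FaDu had an r over 0.1. With 2 libraries per FaDu condition, the FaDu values are opposite by construction. Replicate numbers were not used as pairs in the main fits, and whether they pair the samples was not settled.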

Additional observations from a re-analysis of the deposited data

Results flagged for a closer look

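The response of TGFBI to EGFhigh at 6 h differed between the lines by a test of the difference itself, with a log2 difference (Kyse30 minus FaDu) of -2.06 (SE 0.41, adjusted p = 0.0129, edgeR). When each of the 11 libraries was left out in turn it was called in 8 cases, with an adjusted p of up to 0.593 in the others, and with all FaDu libraries the difference was 1.29 and not called. All 4 Kyse30 EGFhigh libraries lay below the 3 Ctrl libraries, and both FaDu EGFhigh libraries lay above both Ctrl libraries, at 2.01 to 8.81 CPM. A single library far from the others was looked for in the Kyse30 conditions of 4 libraries, 1 member at a time. Of these 40 sets of values, 0 met the limit. Conditions with fewer libraries, among them all of FaDu, were not examined, so INHBA in FaDu Fc at 72 h could not be flagged.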

How the results depend on the processing

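Counts of called members and list genes under other settings were as follows. In a fit of only the groups compared, the count of members was 0 for Kyse30 EGFhigh at 6 h, 0 for EGFhigh against EGFlow at 72 h, 1 for Ctrl at 72 against 6 h, 0 for FaDu EpEX at 6 h, and 0 for FaDu Fc at 72 against 6 h. With untreated and Fc libraries together as control it was 2 (SMAD7, SKIL) for Kyse30 EGFhigh at 6 h, 1 (SKIL) for EGFhigh + EpEX at 6 h, 1 for FaDu EGFlow, 2 for FaDu EGFhigh, and 0 for FaDu EGFhigh + EpEX at 72 h. With the replicate block it was 1 for Kyse30 EGFhigh + EpEX at 6 h, 1 for Ctrl at 72 against 6 h, and 2 for FaDu EGFhigh + EpEX at 72 h, and 4 for ligand genes with EGFhigh + EpEX against EGFhigh; all other counts under the block were within 1.5 times. The labels do not say what libraries of the same replicate number share. With DESeq2 it was 1 for Kyse30 EGFhigh + EpEX at 6 h, 2 for EGFhigh against EGFlow, 1 for EGFhigh + EpEX against EGFhigh, 1 for Ctrl at 72 against 6 h, and 2 for FaDu at 72 h. Without the filter on low counts it was 2 (INHBA, SKIL) for Kyse30 EGFhigh at 72 h, 0 for EGFhigh against EGFlow, 1 for Ctrl at 72 against 6 h, 1 for FaDu EGFlow, and 2 for FaDu at 72 h, and the list counts were 5 target genes at 6 h, 7 ligand genes at 72 h, and, for EGFhigh + EpEX against EGFhigh, 4 ligand genes, 1 receptor gene, and 8 target genes. In a fit of only the groups compared, the last comparison had 1 ligand gene and 1 SMAD regulator. Other size factors kept all 36 counts within 1.5 times.

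With all FaDu libraries, the count was 0 for EpEX at 6 h, 0 for EGFhigh + EpEX at 72 h, 0 for Fc at 72 against 6 h, 1 for the lines at 6 h, and 0 for the response between lines. Signs turned for TGFB1 (-0.56) and TGFBI (-1.86) with EGFhigh, TGFB1 (-0.38) and TGFBI (-3.23) with EpEX, TGFB1 (-0.74) and INHBA (-1) in Fc over time, SMAD3 (0.04) and INHBA (-0.92) between the lines, and TGFBI (1.29) in the response between lines. The causes were not tested.

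Leaving out 1 library gave 0 to 0 calls for Kyse30 EGFhigh at 6 h and FaDu EpEX at 6 h, and 0 to 1 for EGFhigh at 72 h, EGFhigh against EGFlow, EGFhigh + EpEX against EGFhigh, FaDu at 72 h, FaDu Fc over time, and the response between lines. INHBA ranged from -6.44 to 1.05 in FaDu at 72 h and from -0.71 to 6.79 in Fc over time. List counts ranged from 1 to 2 (ligands) and 1 to 3 (targets) at 6 h, from 1 to 3 and 3 to 7 at 72 h, and, for EGFhigh + EpEX against EGFhigh, from 0 to 2 (ligands) and 1 to 2 (SMAD regulators). Low counts limit TGFB1, TGFB2, SMAD7, and BAMBI in both lines, and INHBA and TGFBI in FaDu (medians of 11 and 24.5 counts).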

Other observations

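The 21 FaDu libraries of replicates 1 and 2 were used in the tests only where all FaDu libraries were taken as an alternative. They held other levels of the members than the 20 of replicates 3 and 4. CPM here are TMM-adjusted over all FaDu libraries. INHBA had a median of 18.7 CPM (8.23 to 485) against 1.06 CPM (0.495 to 104). TGFBI, the matrix protein gene, had 11.6 CPM (0 to 624) against 2.78 CPM (0.929 to 9.22). BAMBI, near 0 in the other libraries of both lines, had 13.5 CPM (0 to 141) against 0.322 CPM (0 to 1.60). SMAD3 had 36.2 CPM (14.5 to 132) against 179 CPM (92.4 to 234), and SKIL 36.3 CPM (14.7 to 122) against 95.3 CPM (48.8 to 163). The ranges within replicates 1 and 2 were wide, and the sets were not compared by a test.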
